A study of Mus musculus with 12 samples.

Results

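The transcripts described here are 10 genes of autophagy and the lysosome (Ulk1, Becn1, Atg14, Map1lc3b, Gabarapl1, Sqstm1, Bnip3, Tfeb, Ctsl and Lamp2), chosen by name and found by symbol among the 38926 genes counted in mouse liver. All 10 were among the 14488 genes with enough reads to be tested. RNA sequencing was carried out on 12 livers of mice 12 weeks of age with a 129Ola/C57BL6 background. Wild-type and Rev-erbα-/- animals (labelled Rev KO) were each sampled at ZT8 and at ZT20 (zeitgeber time, in hours after lights on), with 3 livers in each of the 4 groups. According to the methods, the mice were male and came from heterozygous breeding pairs. The knockout is of the whole animal and not of the liver alone. REV-ERBα, the product of Nr1d1, is a nuclear receptor that represses transcription, among others of the clock gene Arntl. The labels number the replicates without saying that each is a separate animal, so p-values measure the spread between these samples. Livers were analysed whole, and in such samples fewer cells of a type and less RNA per cell cannot be told apart.

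Autophagy carries cytoplasmic material to the lysosome for breakdown. The kinase ULK1 starts the process, and a lipid kinase complex that contains Beclin 1 (Becn1) and ATG14 marks the membrane from which the autophagosome grows. Proteins of the ATG8 family, here LC3B (Map1lc3b) and GABARAPL1, are attached to that membrane, where receptors such as p62 (Sqstm1) and BNIP3 bring in cargo. The autophagosome then fuses with a lysosome, whose membrane contains LAMP2 and whose proteases include cathepsin L (Ctsl). TFEB is a transcription factor of lysosomal and autophagy genes. In the liver, autophagy is known to rise with fasting and to follow a daily rhythm.

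Between 17641809 and 26060192 reads per liver were counted on genes. A reference level of 3 reads, below which some markers also had reads, corresponded to between 0.117 and 0.167 CPM (reads scaled to the library size, by the TMM method). The 10 genes had between 134 and 18844 reads in a liver, far above that level. Whole-gene counts of Nr1d1 did not separate the genotypes (at ZT8 100 ± 27 CPM in wild-type livers, against 71.8 ± 8.8 CPM without REV-ERBα, SD, n = 3). These counts hold no positions of reads within the gene, so they do not check the label. By qRT-PCR, the study reported Rev-erbα mRNA as absent in the knockout livers. Arntl, which REV-ERBα represses, was 0.652 ± 0.181 CPM in the wild-type livers of ZT8 and 24.2 ± 1.5 CPM in those of Rev-erbα-/-, without overlap. The 6 hepatocyte markers summed to between 58351 and 100290 CPM. Of the 6 neutrophil markers, Ly6g was at 0 in all 12 livers and Mpo and Camp in most, while S100a8, S100a9 and Retnlg had reads in all 12. The 6 neutrophil markers summed to between 0.504 and 7.02 CPM, with the highest sum in wild-type ZT20 replicate 3. The libraries labelled wild-type ZT8 replicates 2 and 3 stood apart from the rest. Their 6 acute-phase transcripts summed to 16808 and 21491 CPM, against 1706 to 2580 in the other 10 livers, and their 8 macrophage markers to 493 and 591 CPM, against 329 to 454. Differences that rest on these livers are therefore also given without them, singly for the 10 genes and otherwise singly or as counts, in a fit that leaves wild-type ZT8 with 1 liver and takes the spread from the other groups. The summary lines also counted between 1.76 and 3.28 alignments to several places per counted read at ZT8 and between 1.24 and 1.67 at ZT20, and the part of this difference in the changes with time was not tested.

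The promoter windows of the 5 genes that were lower at ZT20 in both genotypes are shown because these genes shared that direction, though not the size of the change. Each window runs from 250 bases before to 50 bases after the annotated transcription start (RefSeq, GRCm38.p6), 5′ to 3′ on the strand of the gene, with an E-box in capitals together with the A that completes a CLEAR core.
Ulk1 (chr5:110810032-110810331, minus strand): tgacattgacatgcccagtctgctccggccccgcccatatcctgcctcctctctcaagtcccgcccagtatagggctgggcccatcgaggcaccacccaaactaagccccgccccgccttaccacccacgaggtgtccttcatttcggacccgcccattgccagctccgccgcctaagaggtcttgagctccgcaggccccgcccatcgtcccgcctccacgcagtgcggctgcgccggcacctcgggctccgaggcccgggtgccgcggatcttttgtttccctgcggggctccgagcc
Gabarapl1 (chr6:129532942-129533241, plus strand): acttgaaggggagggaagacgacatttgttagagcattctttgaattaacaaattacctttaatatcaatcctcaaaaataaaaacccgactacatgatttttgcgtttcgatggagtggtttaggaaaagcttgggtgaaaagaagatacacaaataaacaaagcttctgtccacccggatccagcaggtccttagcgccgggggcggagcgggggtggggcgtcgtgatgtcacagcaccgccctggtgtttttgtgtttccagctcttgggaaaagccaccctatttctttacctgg
Map1lc3b (chr8:121590188-121590487, plus strand): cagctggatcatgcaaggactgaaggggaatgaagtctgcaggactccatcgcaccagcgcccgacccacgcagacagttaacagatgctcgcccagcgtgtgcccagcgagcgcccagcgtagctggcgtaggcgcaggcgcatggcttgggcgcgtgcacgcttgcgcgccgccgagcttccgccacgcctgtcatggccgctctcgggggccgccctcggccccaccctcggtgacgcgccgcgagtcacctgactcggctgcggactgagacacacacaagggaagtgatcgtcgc
Bnip3 (chr7:138909457-138909756, minus strand): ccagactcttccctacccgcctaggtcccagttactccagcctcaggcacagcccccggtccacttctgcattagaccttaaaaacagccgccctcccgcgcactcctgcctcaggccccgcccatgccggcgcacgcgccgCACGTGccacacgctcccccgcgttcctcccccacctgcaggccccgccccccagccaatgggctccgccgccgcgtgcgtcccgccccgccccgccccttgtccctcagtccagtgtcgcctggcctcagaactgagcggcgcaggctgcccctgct
Atg14 (chr14:47568385-47568684, minus strand): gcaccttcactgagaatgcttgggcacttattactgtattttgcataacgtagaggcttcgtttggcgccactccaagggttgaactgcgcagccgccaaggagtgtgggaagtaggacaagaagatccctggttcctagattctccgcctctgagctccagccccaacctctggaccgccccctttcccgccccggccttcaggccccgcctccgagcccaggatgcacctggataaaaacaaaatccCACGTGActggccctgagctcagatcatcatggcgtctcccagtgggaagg
The E-box CACGTG is the binding motif of the clock activators and of TFEB, and the CLEAR core TCACGTG is the longer TFEB motif that contains it. Among the 5 windows, the E-box was found in Bnip3, at position -108 from the start, and in Atg14 at position -1, where it formed part of a CLEAR core on the opposite strand. In the windows of the other members, only Ctsl held an E-box, at position -236. These letters, on either strand, were present in 7.15% of the 32851 promoter windows of the genome for the E-box and in 3.765% for the CLEAR core. The nuclear receptor core AGGTCA (16.3% of all windows) and the FOXO motif TGTTTAC (3.65%) were in none of the 11 windows of the 9 members that the table holds (Becn1 is not among them). A match describes the letters of the window and no more.

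Per kilobase of annotated exon, Gabarapl1 had the highest level of the 10 genes, with a median of 137 CPM per kb over the 12 livers. Sqstm1 (106), Ctsl (85.7) and Lamp2 (71.4) followed, and each of these 4 overlapped its neighbour in the order. Bnip3 (31.8 CPM per kb, range 24.8 to 42.9) lay apart from Lamp2 above it and from Ulk1 (13.4, range 8.64 to 22.9) below it. Map1lc3b (8.46), Becn1 (7.27) and Atg14 (4.21) came next, again with overlapping neighbours, and Tfeb was lowest at 1.57 CPM per kb (1.31 to 1.95). These levels divide by all annotated exons, so a gene whose long transcripts are not used in the liver is placed too low.

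**Figure D1:**
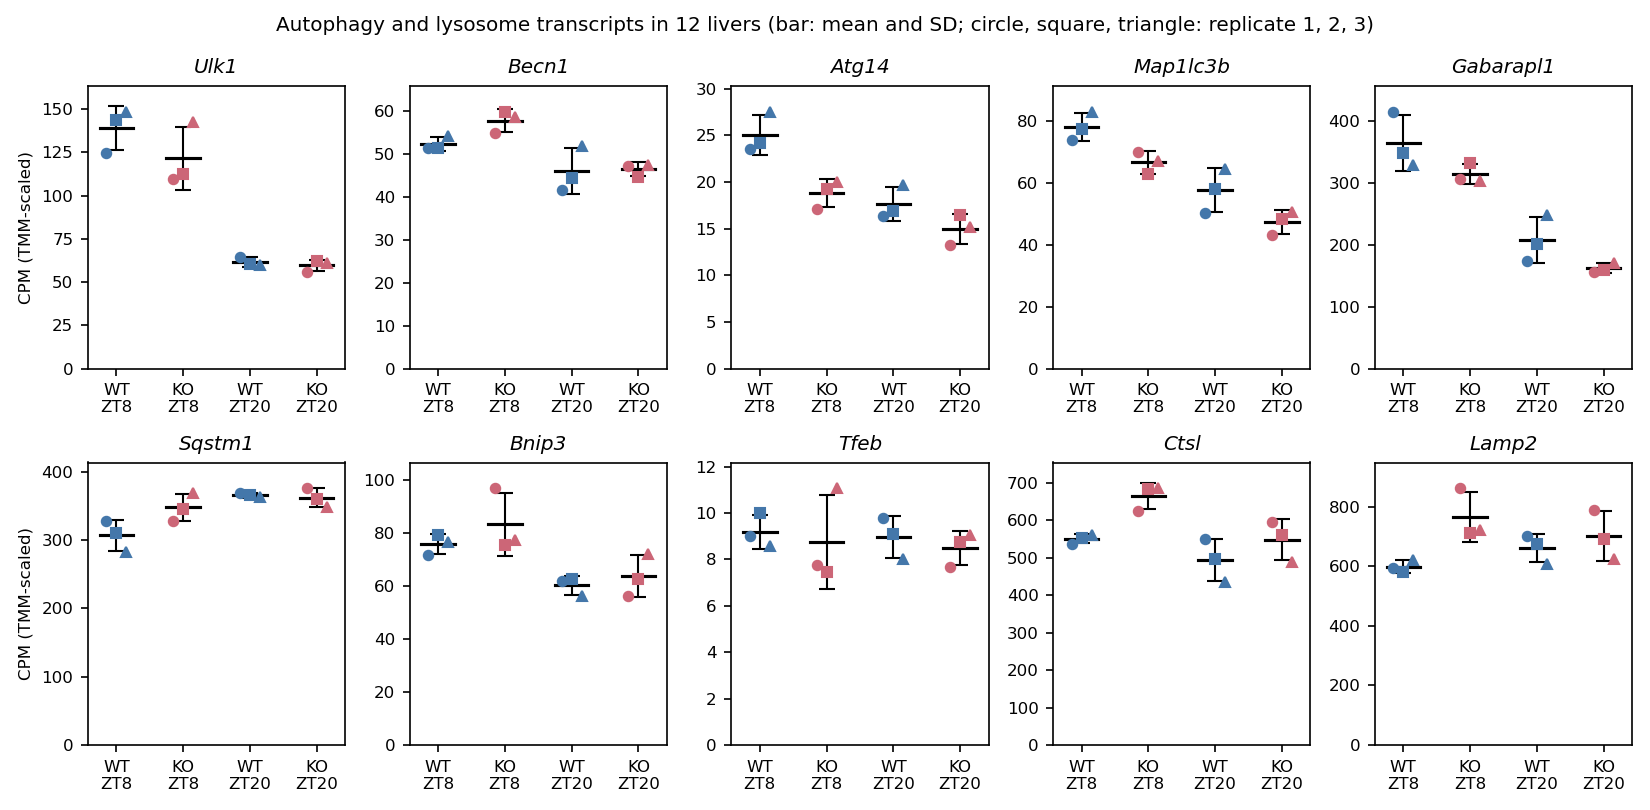
TMM-scaled CPM of the 10 genes in each of the 12 livers, with the group (WT, wild-type; KO, Rev-erbα-/-) and time on the horizontal axis, the mean as a line and the SD as a bar. Ulk1 and Gabarapl1 lie well apart between ZT8 and ZT20 in both genotypes, and Tfeb lies between 7.44 and 11.1 CPM in every group.

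The main difference among these transcripts was between the times of day. In wild-type livers, 5 of the 10 genes were lower at ZT20 than at ZT8 (Ulk1, Gabarapl1, Map1lc3b, Bnip3 and Atg14) and Sqstm1 was higher, with an adjusted p under 0.05 (edgeR, Benjamini-Hochberg over all genes tested). Of all genes tested, 27.7% passed in this comparison, 13.9% as lower. In Rev-erbα-/- livers, 6 of the 10 were lower (the same 5 and Becn1) and none was higher, beside 17.5% of all genes, 8.67% as lower. The times did not overlap for 6 of the 10 in wild-type (42.3% of all genes) and for 7 of the 10 in Rev-erbα-/- (35% of all genes). The median log2 fold change of the 10 genes was -0.26 among wild-type livers and -0.32 among Rev-erbα-/- livers, against -0.0002 and 0.0063 over all genes tested. The 10 genes were chosen with earlier results of these data known, so the shares and medians describe the list and test nothing. Without the 2 wild-type livers high in acute-phase transcripts, 2 of the 10 (Ulk1 and Gabarapl1) passed in wild-type, beside 11.9% of all genes.

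Ulk1, on chromosome 5 (110784488 to 110810097, mm10, minus strand), changed most. Its levels at ZT8 were 125, 144 and 148 CPM in the wild-type livers and 109, 113 and 142 CPM in Rev-erbα-/-. At ZT20, the levels were 64.6, 60.5 and 59.6 CPM in wild-type and 56.0, 61.9 and 61.1 CPM in Rev-erbα-/-. Every liver at ZT20 was below every liver at ZT8, and the genotypes overlapped at both times. The level was 2.25-fold lower at ZT20 in wild-type (log2 fold change -1.17, SE 0.10, adjusted p = 6.2e-07) and 2.04-fold lower in Rev-erbα-/- (-1.03, SE 0.10, adjusted p = 8.6e-06). The wild-type change was -1.02 (adjusted p = 1.2e-04) without the 2 acute-phase livers. Between genotypes, Ulk1 differed by -0.19 at ZT8 (95% interval -0.40 to 0.01, adjusted p = 0.247) and by -0.04 at ZT20 (-0.25 to 0.16). Leaving out Rev-erbα-/- ZT8 replicate 3, the highest of its group, brought the ZT8 value to -0.32 and past the threshold (adjusted p = 0.0317), whereas the value without the 2 acute-phase livers was -0.04 (adjusted p = 0.943).

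Gabarapl1, on chromosome 6 (129533160 to 129542346, plus strand), behaved similarly with time. It was at 414, 348 and 329 CPM in wild-type and 306, 332 and 303 CPM in Rev-erbα-/- livers at ZT8, and at 173, 201 and 247 CPM in wild-type and 156, 159 and 170 CPM in Rev-erbα-/- at ZT20. The change from ZT8 to ZT20 was -0.81 in wild-type (SE 0.12, adjusted p = 1.2e-04) and -0.95 in Rev-erbα-/- (SE 0.12, adjusted p = 7.0e-05), on the log2 scale. The wild-type value was -1.01 (adjusted p = 4.2e-04) without the 2 acute-phase livers. At ZT20, all 3 Rev-erbα-/- livers were below all 3 wild-type livers, and 22.5% of all genes were likewise without overlap in this comparison. The difference of -0.36 did not pass the test (95% interval -0.61 to -0.11, adjusted p = 0.130), and it did pass without wild-type ZT20 replicate 1 (-0.47, adjusted p = 0.0480). An antisense transcript, 1700101I11Rik, covers 28.3% of its exon bases, and reads were counted without strand.

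Map1lc3b, on chromosome 8 (121590361 to 121598760, plus strand), the LC3 gene most used as a marker of autophagosomes, showed a smaller change. It was at 73.9, 77.3 and 82.9 CPM in wild-type and 70.0, 62.8 and 66.9 CPM in Rev-erbα-/- at ZT8. At ZT20, it was at 50.2, 58.0 and 64.4 CPM in wild-type and 43.2, 48.2 and 50.5 CPM in Rev-erbα-/-. The difference between the times was -0.44 in wild-type (SE 0.09, adjusted p = 0.0020) and -0.49 in Rev-erbα-/- (SE 0.09, adjusted p = 0.0018). Without the 2 acute-phase livers, the wild-type value was -0.37 and no longer passed (adjusted p = 0.0805). Between genotypes, the log2 fold change was -0.23 at ZT8 and -0.28 at ZT20, and neither passed (adjusted p = 0.134 and 0.119). The groups did not overlap at ZT8 and did at ZT20, where the value without wild-type ZT20 replicate 1 was -0.37 (adjusted p = 0.0461). The ZT8 value without the 2 acute-phase livers was -0.16 (adjusted p = 0.682).

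Atg14, on chromosome 14 (47540893 to 47570649, minus strand), was the only member called between genotypes in the main edgeR fit. This was at ZT8, where 8.45% of all genes were called. At ZT8, it was at 23.6, 24.2 and 27.6 CPM in wild-type livers and at 17.1, 19.2 and 20.03 CPM in Rev-erbα-/- livers. At ZT20, it was at 16.3, 16.9 and 19.7 CPM in wild-type and 13.3, 16.5 and 15.2 CPM in Rev-erbα-/-. The genotypes did not overlap at ZT8, and they overlapped at ZT20. The level at ZT8 was 1.33-fold lower in Rev-erbα-/- (25.1 ± 2.2 against 18.8 ± 1.5 CPM, SD, n = 3; log2 fold change -0.42, SE 0.10, adjusted p = 0.0231). This call was lost when wild-type ZT8 replicate 2 or 3 or Rev-erbα-/- ZT8 replicate 1 or 2 was left out, with log2 fold changes from -0.46 to -0.34 over all 12 single omissions. Without both acute-phase livers, the difference was -0.33 (adjusted p = 0.341). With time, Atg14 fell by 0.51 on the log2 scale in wild-type (log2 fold change -0.51, adjusted p = 0.0020) and by 0.32 in Rev-erbα-/- (-0.32, adjusted p = 0.0469). The second of these was lost in 10 of 19 alternatives, among them DESeq2 and the omission of wild-type ZT8 replicate 2, wild-type ZT20 replicate 1 or 2, Rev-erbα-/- ZT8 replicate 2 or 3, or Rev-erbα-/- ZT20 replicate 1 or 3. The first was lost without both acute-phase livers (-0.42, adjusted p = 0.0775).

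Becn1, the partner of ATG14 in the lipid kinase complex (chromosome 11, 101285952 to 101302286, minus strand), was not called between genotypes at either time. Its log2 fold change at ZT8 was 0.14 (95% interval -0.03 to 0.31, edgeR, adjusted p = 0.303), opposite in sign to that of Atg14. All 3 Rev-erbα-/- livers were above all 3 wild-type livers there, and 25.6% of all genes did not overlap in this comparison. At ZT8, Becn1 was at 51.4, 51.4 and 54.0 CPM in wild-type and 54.7, 59.8 and 58.5 CPM in Rev-erbα-/-. By ZT20, it was at 41.4, 44.4 and 51.9 CPM in wild-type and 47.1, 44.5 and 47.4 CPM in Rev-erbα-/-. The fall with time passed in Rev-erbα-/- (log2 fold change -0.32, SE 0.08, adjusted p = 0.0134), where the times did not overlap, and the value in wild-type was -0.19 (adjusted p = 0.0986), -0.30 without wild-type ZT20 replicate 3 (adjusted p = 0.0112) and -0.17 without the 2 acute-phase livers (adjusted p = 0.426). The difference of these changes was 0.13 (95% interval -0.11 to 0.37). The Rev-erbα-/- call was lost when Rev-erbα-/- ZT8 replicate 2 or Rev-erbα-/- ZT20 replicate 2 was left out. Cntd1 on the opposite strand covers 43.9% of the exon bases of Becn1.

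The 2 cargo receptors went in opposite directions with time in wild-type livers. Bnip3, a mitophagy receptor (chromosome 7, 138890836 to 138909519, minus strand), was at 72.0, 79.5 and 76.6 CPM at ZT8 and 62.1, 62.8 and 56.2 CPM at ZT20 in wild-type, and at 97.1, 75.6 and 77.4 CPM and 56.3, 62.9 and 72.1 CPM in Rev-erbα-/-. Its log2 fold change with time was -0.33 in wild-type (adjusted p = 0.0257) and -0.39 in Rev-erbα-/- (adjusted p = 0.0171), without overlap in either genotype. Sqstm1 (chromosome 11, 50199366 to 50210827, minus strand) was at 327, 311 and 283 CPM at ZT8 and 369, 366 and 363 CPM at ZT20 in wild-type, and at 329, 345 and 369 CPM and 376, 361 and 349 CPM in Rev-erbα-/-. It rose by 0.25 in wild-type (adjusted p = 0.0294) and differed by 0.06 in Rev-erbα-/- (95% interval -0.11 to 0.23), and the difference of these changes did not pass (0.19, adjusted p = 0.372, or 0.09 without the 2 acute-phase livers). Without the 2 acute-phase livers, the wild-type values were -0.26 for Bnip3 (adjusted p = 0.315) and 0.15 for Sqstm1 (adjusted p = 0.419). The Bnip3 call in wild-type was lost in 5 of the 12 single omissions (wild-type ZT8 replicates 2 and 3 and each wild-type ZT20 replicate) and the Sqstm1 call in the same 5. Sqstm1 also did not pass with no filter on low counts (adjusted p = 0.0619) or in a fit of the wild-type livers alone (adjusted p = 0.0504), so its call was lost in 8 of 19 alternatives. The Bnip3 call in Rev-erbα-/- was lost without Rev-erbα-/- ZT8 replicate 1 or Rev-erbα-/- ZT20 replicate 1 or 2, and in a fit of the Rev-erbα-/- livers alone (adjusted p = 0.0554). Of the Bnip3 transcript, 34.4% of 75-base stretches also occur in other genes, and Mrnip on the opposite strand covers 17.3% of the exon bases of Sqstm1.

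**Figure D2:**
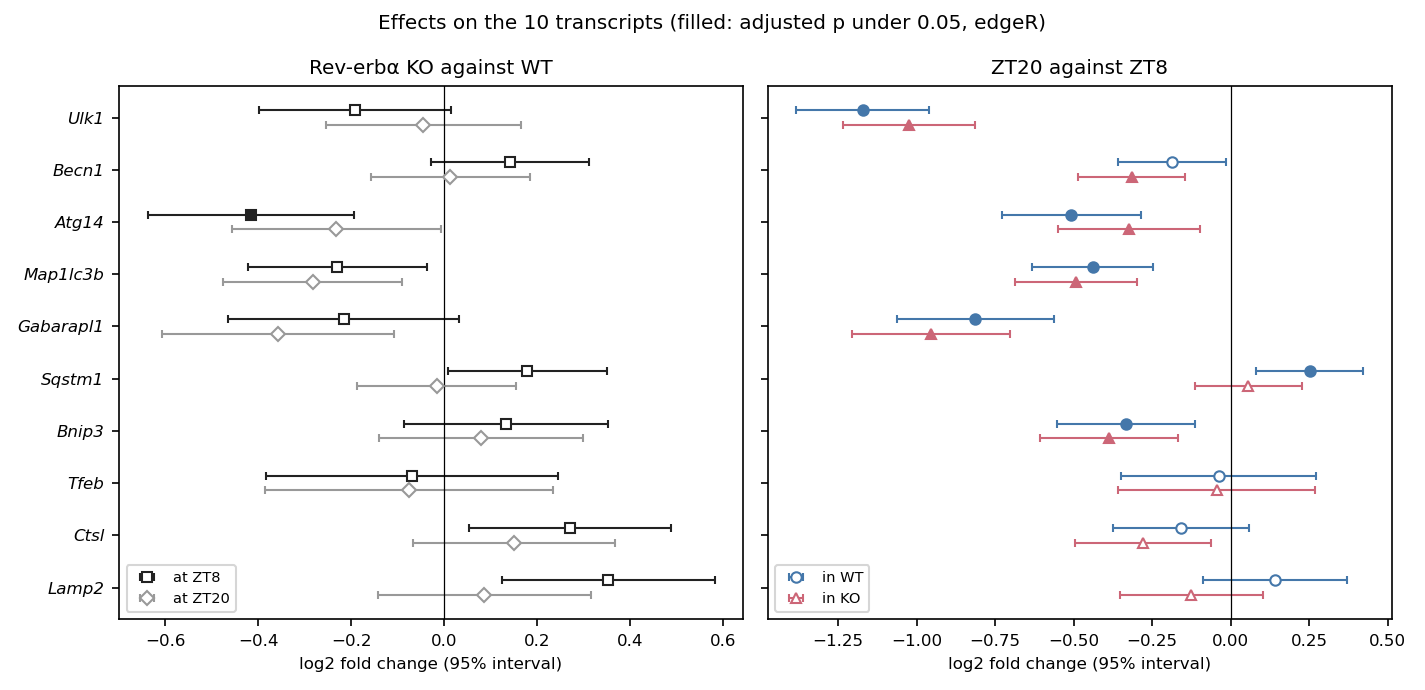
Log2 fold change with its 95% interval for each gene between genotypes (left, at ZT8 and at ZT20) and between times (right, in each genotype), filled where the adjusted p was under 0.05. Only Atg14 at ZT8 is filled on the left, and the intervals of Ulk1 and Gabarapl1 on the right lie wholly below -0.56.

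For Tfeb, Ctsl and Lamp2, edgeR called no change with time in either genotype, while DESeq2 called Ctsl lower at ZT20 in Rev-erbα-/- livers (log2 fold change -0.28, adjusted p = 0.0298). Tfeb, on chromosome 17 (47737030 to 47792419, plus strand), was between 7.44 and 11.1 CPM in the 12 livers, and the range of its 4 group means (0.11 on the log2 scale) was larger than that of only 5.43% of all genes tested. The intervals of its 4 comparisons between groups reached from -0.39 to 0.27, so a change of that size could not be told from none. Ctsl, on chromosome 13 (64359337 to 64370890, minus strand), was at 537, 552 and 560 CPM in wild-type and 623, 683 and 685 CPM in Rev-erbα-/- at ZT8, and at 548, 497 and 435 CPM and 595, 560 and 487 CPM at ZT20. All Rev-erbα-/- livers were above all wild-type livers at ZT8, and the difference of 0.27 did not pass (adjusted p = 0.117, with 0.30 and adjusted p = 0.407 without the 2 acute-phase livers). With time, Ctsl differed by -0.16 in wild-type (adjusted p = 0.282, or -0.13 without the 2 livers) and by -0.28 in Rev-erbα-/-, where the times did not overlap (edgeR, adjusted p = 0.0740). Antisense and pseudogene transcripts cover 26.8% of its exon bases.

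Lamp2, on chromosome X (38401357 to 38456454, minus strand), had the largest difference between genotypes at ZT8 after Atg14. At ZT8, it was at 595, 581 and 622 CPM in wild-type and 863, 713 and 723 CPM in Rev-erbα-/- livers. At ZT20, it was at 701, 674 and 609 CPM in wild-type and 791, 691 and 626 CPM in Rev-erbα-/-. The genotypes were apart at ZT8 and overlapped at ZT20. The difference at ZT8 was 1.28-fold (log2 fold change 0.35, SE 0.11) and missed the threshold (adjusted p = 0.0541), while DESeq2 (adjusted p = 0.0118) and the fit without a filter on low counts (0.0418) placed it below. It was also below with the replicate block (0.0448) and without Rev-erbα-/- ZT20 replicate 1 (0.0393) or 3 (0.0442), although neither of these livers is part of the comparison. The value was 0.36 (adjusted p = 0.319) without the 2 acute-phase livers.

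Between genotypes at ZT8, 1 of the 10 genes was thus called, beside 8.45% of all genes tested, and 6 of the 10 did not overlap, beside 25.6% of all genes. Those with higher levels in all 3 Rev-erbα-/- livers were Sqstm1, Becn1, Ctsl and Lamp2, and those with lower levels were Map1lc3b and Atg14. At an unadjusted p under 0.05, edgeR gave 5 of the 10, beside 23.5% of all genes. DESeq2 with adjusted p gave 2 of the 10, beside 1503 of 13297 genes. The Atg14 call was lost without the 2 acute-phase livers, where 2.29% of all genes passed. At ZT20, edgeR called 0 of the 10 (3.63% of all genes), with 3 at an unadjusted p under 0.05 (14.6% of all genes). DESeq2 called 0 of the 10 at that time, beside 679 of 15545 genes. No member had a genotype effect that differed between the times by edgeR (5.88% of all genes). At an unadjusted p under 0.05 the count was also 0 (19.6% of all genes), and DESeq2 called 0 of the 10, beside 1086 of 15545 genes.

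Around these 10 genes, 143 further genes of the same pathways were examined in 8 lists by role, and all were tested. At ZT8, 3 were higher and 8 lower in Rev-erbα-/- livers (7.69%, beside 8.45% of all genes), and at ZT20 3 were higher and 1 lower (2.8%, beside 3.63%). Between times, 17 were higher and 40 lower at ZT20 in wild-type (39.9%, beside 27.7%), and 9 were higher and 22 lower in Rev-erbα-/- (21.7%, beside 17.5%). Without the 2 acute-phase livers, 2 were higher and 3 lower at ZT8 (beside 2.29% of all genes), and 9 were higher and 21 lower with time in wild-type (beside 11.9%). These 30 were 4 initiation genes, 3 of ATG8 conjugation, 4 receptors, 6 regulators, 2 of fusion, 7 hydrolases, 3 of the lysosomal membrane and 1 of the proton pump. By list, the share called at ZT8 over all livers ran from 0% (conjugation, receptors and proton pump) to 15.8% (regulators). With time it ran from 21.4% (conjugation) to 72.7% (receptors) in wild-type. In Rev-erbα-/- it ran from 13.3% (proton pump) to 41.7% (fusion). The median log2 fold change over the 143 genes was -0.09 among wild-type livers and -0.03 among Rev-erbα-/- livers.

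**Figure D3:**
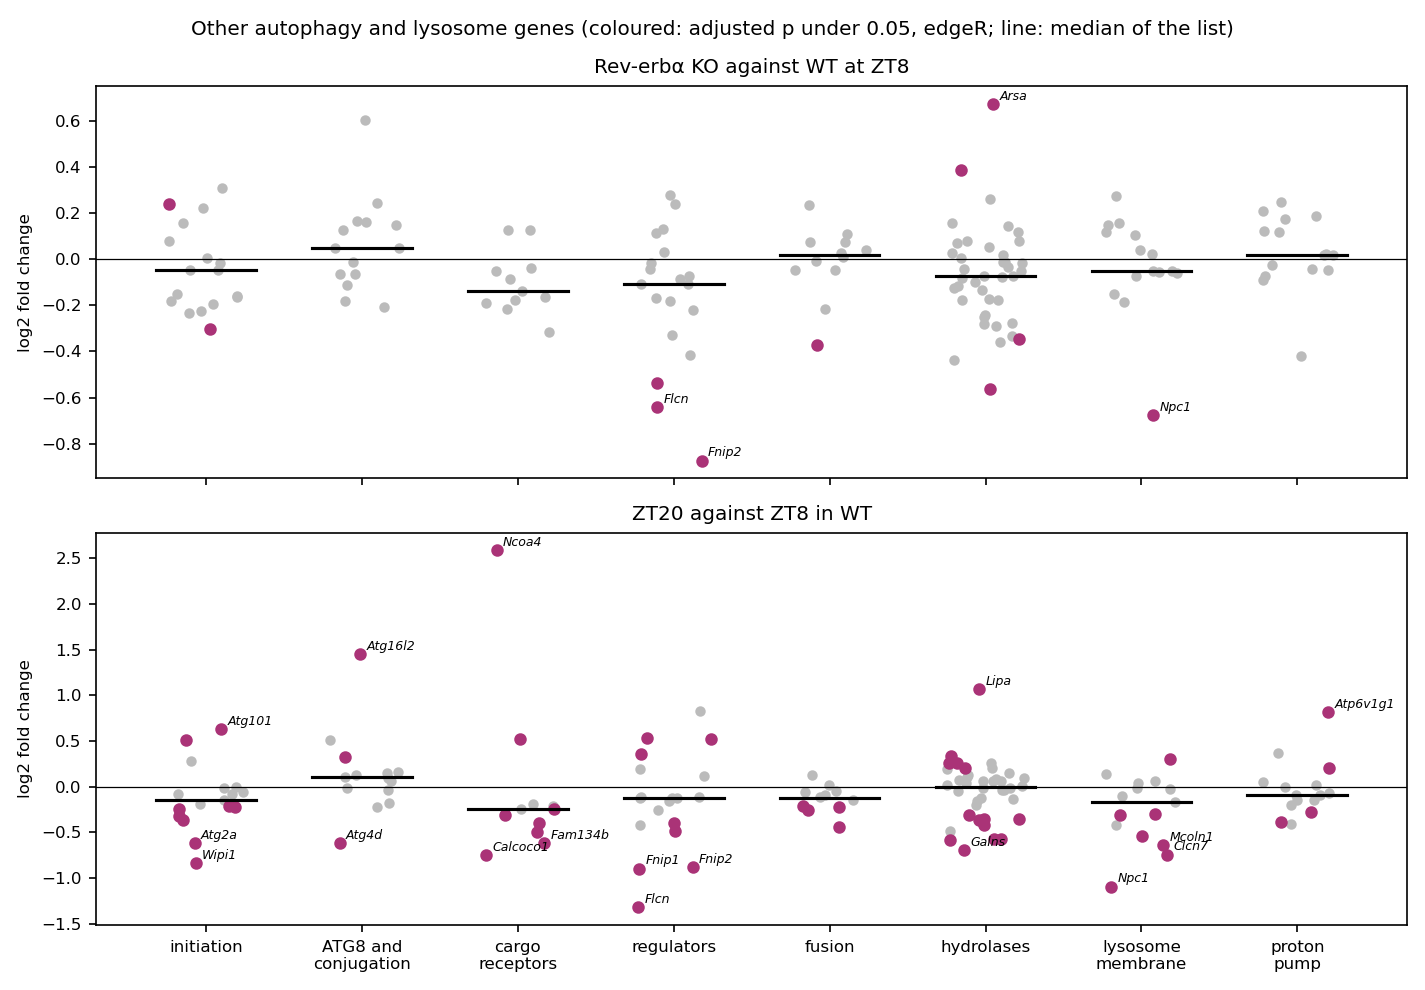
Log2 fold change of each of the 143 pathway genes in its list, for Rev-erbα-/- against wild-type at ZT8 (above) and for ZT20 against ZT8 in wild-type (below), coloured where the adjusted p was under 0.05, with the median of each list as a line. Fnip2, Flcn and Npc1 lie lowest at ZT8, and Ncoa4 lies highest and Flcn lowest between the times.

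Among the 19 regulators, 3 were lower in Rev-erbα-/- livers at ZT8 and none was higher (15.8%, beside 8.45% of all genes). All 3 passed in each alternative tried. Fnip2 and Flcn encode partners in a complex through which amino acids control mTORC1 and TFEB. Fnip2 was at 75.7, 66.7 and 68.7 CPM in wild-type and 38.7, 34.7 and 41.8 CPM in Rev-erbα-/- livers at ZT8 (log2 fold change -0.87, SE 0.09, adjusted p = 1.6e-05). Flcn was at 52.4, 57.5 and 61.8 CPM in wild-type and 37.1, 36.1 and 36.6 CPM in Rev-erbα-/- (-0.64, SE 0.09, adjusted p = 2.6e-04). Foxo3, a transcription factor of autophagy genes, was at 84.9, 79.9 and 79.7 CPM in wild-type and 57.3, 55.2 and 56.1 CPM in Rev-erbα-/- (-0.54, SE 0.08, adjusted p = 9.2e-04). The genotypes were far apart in each of these genes.

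At ZT20, Fnip2 was at 41.0, 37.8 and 35.9 CPM in wild-type and 33.4, 33.3 and 29.7 CPM in Rev-erbα-/-, and Flcn at 21.03, 22.9 and 24.9 CPM in wild-type and 22.2, 22.6 and 19.4 CPM in Rev-erbα-/-. The genotype effect was thus larger at ZT8 by the interaction test for Fnip2 (-0.63, SE 0.12, adjusted p = 0.0062) and for Flcn (-0.54, SE 0.12, adjusted p = 0.0159). The Flcn interaction did not pass without the 2 acute-phase livers (-0.43, adjusted p = 0.156) or without Rev-erbα-/- ZT20 replicate 2. Between times, Flcn (log2 fold change -1.32), Fnip1 (-0.89) and Fnip2 (-0.88) were lower at ZT20 in wild-type, and Flcn (-0.77), Fnip1 (-0.77) and Foxo1 (-0.46) in Rev-erbα-/-. In wild-type, 3 of the 19 regulators were higher and 5 lower (42.1%, beside 27.7% of all genes). In Rev-erbα-/-, 1 was higher and 3 lower (21.1%, beside 17.5% of all genes).

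Genes of the lysosome went both ways. Of 40 hydrolase genes, Arsa (arylsulfatase A) and Lipa (lysosomal acid lipase) were higher in Rev-erbα-/- livers at ZT8, and Idua (α-L-iduronidase, -0.56, adjusted p = 0.0256) and Ppt1 (palmitoyl-protein thioesterase, -0.34, adjusted p = 0.0280), named because it completes the count, were lower. The Idua call was lost without any wild-type ZT8 liver or without Rev-erbα-/- ZT8 replicate 1 or 2, and the Ppt1 call in 5 of 12 single omissions. Neither passed without the 2 acute-phase livers (-0.66, adjusted p = 0.119 for Idua, and -0.34, adjusted p = 0.247 for Ppt1). Arsa was at 72.6, 63.5 and 48.2 CPM in wild-type and 96.9, 97.0 and 101 CPM in Rev-erbα-/- (log2 fold change 0.68, SE 0.11, adjusted p = 0.0015), and at ZT20 between 44.1 and 52.3 CPM in both. Its 2 lowest wild-type values at ZT8 were those of the acute-phase livers, without which the difference was 0.43 (adjusted p = 0.0347). Lipa was at 195, 174 and 166 CPM in wild-type and 229, 233 and 239 CPM in Rev-erbα-/- at ZT8, and at 372, 384 and 369 CPM and 334, 349 and 322 CPM at ZT20. Its difference at ZT8 was 0.39 (adjusted p = 0.0059), or 0.25 without the 2 livers (adjusted p = 0.272), and its rise with time was 1.07 in wild-type (adjusted p = 1.5e-07) and 0.52 in Rev-erbα-/- (adjusted p = 3.7e-04). The genotype effect differed between the times for both genes (0.77 for Arsa, adjusted p = 0.0084, and 0.55 for Lipa, adjusted p = 0.0070). The Lipa interaction did not pass without the 2 livers (0.41, adjusted p = 0.0954).

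**Figure D4:**
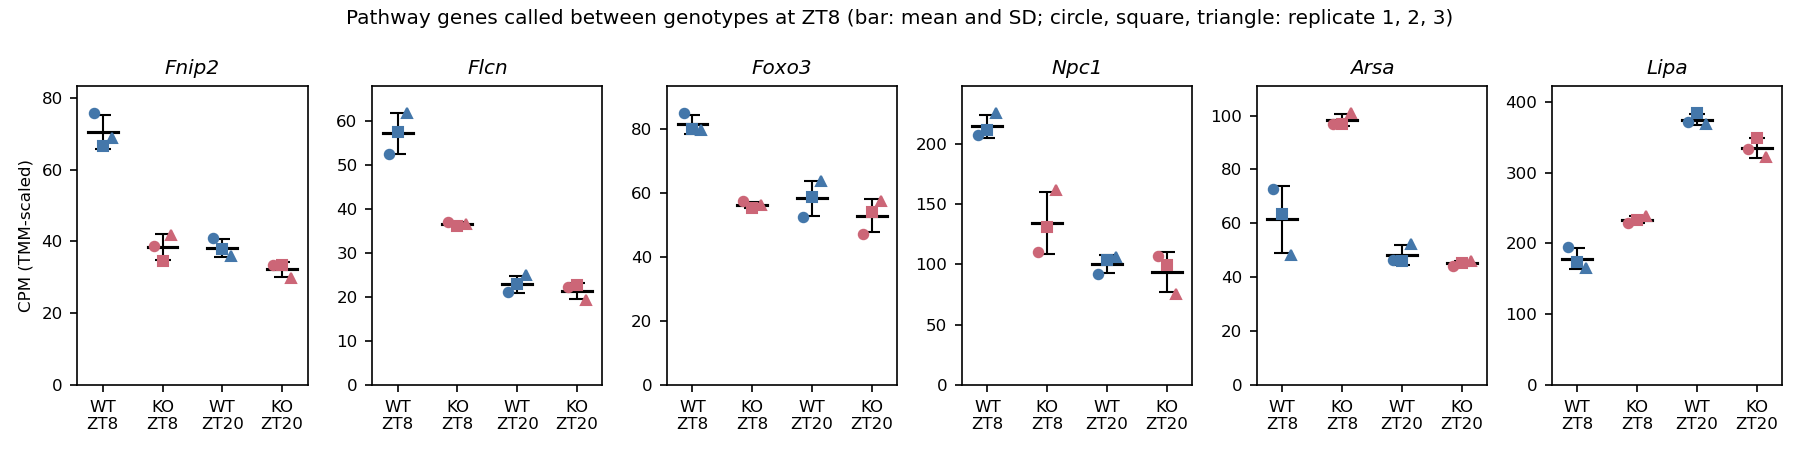
TMM-scaled CPM in each liver for 6 pathway genes called between genotypes at ZT8, with the mean as a line and the SD as a bar. At ZT8 the 3 Rev-erbα-/- livers lie below the 3 wild-type livers for Fnip2, Flcn, Foxo3 and Npc1 and above them for Arsa and Lipa.

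Among the 15 other genes of the lysosomal membrane, 1 was lower in Rev-erbα-/- at ZT8 (6.67%, beside 8.45% of all genes). This was Npc1, which exports cholesterol from the lysosome, at 207, 211 and 225 CPM in wild-type and 111, 131 and 162 CPM in Rev-erbα-/- (log2 fold change -0.68, SE 0.14, adjusted p = 0.0101). Without the 2 acute-phase livers, the value was -0.63 (adjusted p = 0.213). Npc1 (-1.09), the chloride transporter gene Clcn7 (-0.74) and the calcium channel gene Mcoln1 (-0.64) were lower at ZT20 in wild-type. There, 1 gene of the list was higher and 6 were lower (46.7%, beside 27.7% of all genes). In Rev-erbα-/-, 2 were higher and 3 lower (33.3%, beside 17.5% of all genes). The 3 were Clcn7 (-0.75), Ostm1 (-0.54) and Npc1 (-0.52, lost in 3 of 12 single omissions). Mcoln1 was higher in Rev-erbα-/- than in wild-type at ZT20 (0.34, adjusted p = 0.0366), as was the protease gene Lgmn (0.34, adjusted p = 0.0401), and both calls were lost in several single omissions, 6 of 12 for Mcoln1 and 8 of 12 for Lgmn. Of the 15 genes of the proton pump, none was called between genotypes (beside 8.45% of all genes at ZT8 and 3.63% at ZT20). At ZT20 in wild-type, 2 were higher and 2 lower (26.7%, beside 27.7% of all genes).

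Of the 17 initiation genes, Zfyve1 was higher (0.24) and Rubcn, an inhibitor of autophagosome maturation, lower (-0.30) in Rev-erbα-/- livers at ZT8, with adjusted p = 0.0411 and 0.0261. Neither passed without the 2 acute-phase livers (adjusted p = 0.180 and 0.405), and single omissions ended the first call in 8 of 12 cases and the second in 4. Between times, Wipi1, which binds the lipid made by the ATG14 complex, was lower at ZT20 in wild-type (-0.84, adjusted p = 4.6e-05) and in Rev-erbα-/- (-0.85, adjusted p = 1.0e-04). Atg101, a subunit of the ULK1 complex, was higher in wild-type (0.63), and 2 of the 17 were higher and 7 lower in all (52.9%, beside 27.7% of all genes). Among the 14 genes of ATG8 proteins and their conjugation, none was called between genotypes, and Atg16l2 was higher at ZT20 in wild-type (1.45, adjusted p = 1.8e-05) and in Rev-erbα-/- (1.06, adjusted p = 6.8e-04), while Atg4d was lower in both (-0.62 and -0.34, the latter lost in 4 of 12 single omissions). Without the 2 acute-phase livers, 2 genes of this list were called that had not been, named here after their values were seen. Atg4c, a protease that processes ATG8 proteins, then differed by 1.21 between genotypes at ZT8, from 0.60 over all livers (edgeR, adjusted p = 0.172). Its interaction was 1.68, from 1.09 over all livers. Both Atg4c values without the 2 livers rest on 1 wild-type ZT8 liver. Atg16l2 differed by -0.57 at ZT20, from -0.58 over all livers (edgeR, adjusted p = 0.0544). Neither omitted liver is part of that comparison, and the size of the difference hardly moved. Of the 12 fusion genes, Plekhm1 was lower in Rev-erbα-/- at ZT8 (-0.37, adjusted p = 0.0258) and Epg5 higher at ZT20 (0.32, adjusted p = 0.0296). Without the 2 acute-phase livers, the Plekhm1 value was -0.26 (adjusted p = 0.389), and the call was also lost without wild-type ZT8 replicate 2 or Rev-erbα-/- ZT8 replicate 1 or 2. The Epg5 call was lost when any ZT20 liver was left out.

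Of the 11 further cargo receptors, 2 were higher and 6 lower at ZT20 in wild-type (72.7%, beside 27.7% of all genes). In Rev-erbα-/-, 3 were lower (27.3%, beside 17.5% of all genes). Fam134b, a receptor for endoplasmic reticulum, was lower in both genotypes (-0.62 and -0.73), as was Calcoco1 (-0.74 and -0.48). In wild-type, neither passed without the 2 acute-phase livers (adjusted p = 0.221 and 0.0635), and the Calcoco1 call in Rev-erbα-/- was lost without any 1 of the 6 Rev-erbα-/- livers. Ncoa4, the receptor for ferritin, had the largest difference of the 143 genes. It was at 1.71, 1.39 and 1.83 CPM in wild-type and 2.08, 1.5 and 1.81 CPM in Rev-erbα-/- at ZT8. At ZT20, it was at 10.7, 8.71 and 10.4 CPM in wild-type but at 3.15, 2.61 and 1.87 CPM in Rev-erbα-/-. These are low levels for a gene with 9.365 kb of exon, and whether Ncoa4 shares stretches with other genes was not examined. The level at ZT20 was 3.89-fold lower in Rev-erbα-/- (log2 fold change -1.96, SE 0.18, adjusted p = 1.3e-05), and the genotype effect differed between the times (2.09, SE 0.29, adjusted p = 5.0e-04). Both calls held in every alternative tried.

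Ulk1 and Gabarapl1 were the members whose group means spanned more than 1 on the log2 scale. Over the 12 livers, the gene whose centred log2 CPM lay closest to that of Ulk1 was Pnpla2, which encodes adipose triglyceride lipase, with a root mean square difference of 0.093. Tbc1d10a (0.130) and Syne3 (0.132) followed. Pnpla2 was at 70.2, 84.8 and 89.8 CPM in wild-type and 68.7, 68.6 and 93.6 CPM in Rev-erbα-/- at ZT8, and between 33.5 and 42.7 CPM at ZT20. Closest to Gabarapl1 were Klf13 (0.125), Hook2 (0.136) and Ngef (0.138). Among the 10 members themselves, Map1lc3b and Atg14 were the closest pair (0.116), followed by Ctsl and Lamp2 (0.158). These likenesses describe the same 12 livers and carry no test.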

How the data were processed

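Poly(A) RNA of 12 mouse livers, 3 for each genotype and time, was sequenced in reads of up to 75 bases. TopHat was used by the authors for mapping to mm10, and HTSeq for counting the reads with a unique place under each gene symbol (union mode, minimum alignment quality 10, strand ignored), and per the submitters' processing notes SAMtools and DESeq2 1.6.3 were also used. The values the authors deposited are raw counts per gene, without normalization. Reads mapped to several places or to more than 1 gene are not in these counts, so members with near-identical copies or overlapping genes are measured on their remaining sequence. The 5 summary lines of each file were left out of library sizes.

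The filterByExpr rule took out genes with too few reads. Counts were scaled by TMM and tested in edgeR 4.0.16 (R 4.3.3, quasi-likelihood, robust) with 4 group means over all 12 livers, Benjamini-Hochberg adjustment within each comparison and a threshold of 0.05. CPM are counts scaled to the TMM library size, given as mean ± SD. Intervals and the reference level of 3 counts cover 95% of model error and counting error only. The fit was also run on simulated counts drawn with the fitted spread of each gene. The simulated data held no acute-phase livers, so that run does not bear on results that rest on those livers. Alternatives were DESeq2 1.42.0, its size factors, no filter, a filter of 10 counts in each liver, only the groups compared, a block for replicate number, each liver left out, and, chosen after seeing the data, both wild-type ZT8 livers with high acute-phase transcripts left out. The members, pathway lists and tests were chosen with earlier results of these data known. All 10 members are named. From each list and comparison, up to 3 called genes with the largest change are named. For members spanning at least 1 log2 unit between group means, the 3 genes closest over the 12 livers are named. Positions and exon overlaps come from GENCODE on mm10, and promoter windows from RefSeq. Rubcn and Atg101 are listed in the files under older symbols.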

Additional observations from a re-analysis of the deposited data

How the results depend on the processing

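Of 50 log2 fold changes of the 10 genes, 13 were called, none of these changed sign in up to 19 alternatives, and 5 were called in all of them (Ulk1 and Gabarapl1 with time in both genotypes, and Map1lc3b with time in Rev-erbα-/-). Between genotypes at ZT8, DESeq2 called 1503 of 13297 genes, the fit with no filter 1220 of 23189 and the replicate block 1210 of 14488. There, 1 member was called in the main analysis, but 2 were called with DESeq2, 2 with no filter and 2 with the replicate block, each time by the addition of Lamp2. The count was 0 without wild-type ZT8 replicates 2 and 3. Single omissions gave 0 to 2 members at ZT8, 0 to 2 at ZT20, 4 to 6 with time in wild-type and 4 to 6 with time in Rev-erbα-/-. Over all genes, the 1224 calls at ZT8 became 769 with only the samples compared and 346 without wild-type ZT8 replicates 2 and 3. That omission also gave 493 calls for the interaction, 1795 with time in wild-type, and 2 members with time in wild-type, in a design with fewer livers. Single omissions gave 542 to 1811 genes at ZT8 (the fewest without wild-type ZT8 replicate 2), 239 to 656 at ZT20 and 493 to 1260 for the interaction (the fewest of both without wild-type ZT20 replicate 2), and 1566 to 2847 with time in Rev-erbα-/- (the fewest without Rev-erbα-/- ZT20 replicate 2).

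Some uncalled values near 0 changed sign. Without wild-type ZT8 replicates 2 and 3, the interaction of Ulk1 was 0.0018 and that of Gabarapl1 -0.054, and with no filter that of Tfeb was -0.0018. Over single omissions, the Tfeb value ranged from -0.275 to 0.0352 between genotypes at ZT8, from -0.200 to 0.111 for the interaction, and from -0.103 to 0.0267 and -0.147 to 0.163 with time in wild-type and Rev-erbα-/-. At ZT20 the ranges were -0.0180 to 0.160 for Bnip3, -0.0445 to 0.0106 for Sqstm1, -0.0547 to 0.117 for Becn1 and -0.0066 to 0.163 for Lamp2, and for the interaction -0.0174 to 0.256 for Gabarapl1, -0.0460 to 0.143 for Map1lc3b and -0.0774 to 0.153 for Bnip3. The causes were not tested.

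Replicate numbers did not pair the livers: deviations of the 18 same-numbered pairs correlated with r from -0.083 to 0.074, and the best partner shared the number in 7 of 36 cases. The replicate block changed no member's call other than that of Lamp2 at ZT8. The change of scaling moved the median of all genes by at most 0.004 on the log2 scale in size.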

Other observations

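Pck1, the gluconeogenic enzyme induced by fasting, differed widely among wild-type livers of the same time and less among Rev-erbα-/- livers. It was measured as 1 of the 6 hepatocyte markers and is named after its values were seen. In the 3 wild-type livers at ZT20, Pck1 was at 375, 791 and 1664 CPM, while Gabarapl1 was at 173, 201 and 247 CPM and Map1lc3b at 50.2, 58.0 and 64.4 CPM in the same livers in that order. Ulk1 went the other way, at 64.6, 60.5 and 59.6 CPM. In the wild-type livers at ZT8, Pck1 was at 1909, 3093 and 3578 CPM, with Ulk1 at 125, 144 and 148 CPM and Gabarapl1 at 414, 348 and 329 CPM. Map1lc3b was at 73.9, 77.3 and 82.9 CPM in these livers, of which replicates 2 and 3 are those high in acute-phase transcripts. In Rev-erbα-/- livers, Pck1 was at 1780, 2023 and 2230 CPM at ZT8, with Ulk1 at 109, 113 and 142 CPM and Gabarapl1 at 306, 332 and 303 CPM. Map1lc3b was at 70.0, 62.8 and 66.9 CPM in the same livers. At ZT20 in Rev-erbα-/-, Pck1 was at 974, 881 and 906 CPM, with Ulk1 at 56.0, 61.9 and 61.1 CPM, Gabarapl1 at 156, 159 and 170 CPM and Map1lc3b at 43.2, 48.2 and 50.5 CPM, so the orders were not shared. Groups of 3 livers allow no test of a relation, and none was made.

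Galns, which encodes a lysosomal sulfatase, was at 11.4, 12.5 and 12.7 CPM in wild-type and 9.82, 8.78 and 10.4 CPM in Rev-erbα-/- livers at ZT8. At ZT20, it was at 6.98, 7.56 and 8.01 CPM in wild-type and 9.95, 10.1 and 8.45 CPM in Rev-erbα-/-, so that the order of the genotypes was turned around. Galns was called between genotypes at neither time. The genotypes did not overlap at either time, as for 25.6% of all genes at ZT8 and 22.5% at ZT20. The interaction by edgeR was -0.67 (SE 0.16, adjusted p = 0.0195), and it did not pass without the 2 wild-type livers high in acute-phase transcripts (-0.58, adjusted p = 0.155). It was also lost in 5 of 12 single omissions, of wild-type ZT8 replicate 2, wild-type ZT20 replicate 1 or 2, Rev-erbα-/- ZT8 replicate 2 or Rev-erbα-/- ZT20 replicate 2.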
